A study of Mus musculus with 6 samples.

Results

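The 45 genes described here encode lysosomal proteins and were chosen by name as a gene module. They comprise 12 proteases and peptidases, 12 glycosidases and sulfatases, 4 lipid and acyl hydrolases, 3 soluble activators and carriers, 9 membrane proteins and 5 subunits of the proton pump. Of these 45 genes, 41 had at least 1 peak in the 6 peak lists of the series, among 14930 genes with a peak. Together they held 659 of 134964 peaks. Merging peaks that overlapped across the 6 lists gave 254 regions at the lysosome genes, of 60856 regions in all.

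Antibodies to C/EBPα, IRF8 and JUNB were used for ChIP-seq, which sequences the DNA that a protein occupies, in bone marrow-derived macrophages (BMDMs). BMDMs are primary macrophages grown from marrow, here of wild-type mice 8 to 12 weeks old, over 6 days in L929 supernatant, a source of macrophage colony-stimulating factor (M-CSF). The control groups had no IL-4, and the IL-4 groups received 20 ng/ml for 1 h, with no other allele or agent in either. Each antibody and condition had 1 sample, so no difference below could be set against a replicate error, and none was tested. How many animals gave each sample was not given in the sources used here. Of 8 macrophage marker genes, 7 had a peak in some list, among them Csf1r, Itgam, Lyz2 and the module gene Cd68. No peak was assigned under the name Spi1. The JUNB lists held 5 of the 8 in control and 3 after IL-4. Markers of other cells had peaks too, at 3 of 4 B cell, 3 of 5 neutrophil, 2 of 5 T cell and 1 of 4 erythroid genes. Peaks near a gene do not measure its expression, so these counts do not identify the cells.

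Lysosomes are acidic organelles in which cells digest material taken up from outside and worn parts of their own. A vacuolar proton pump (V-ATPase) acidifies the lumen, soluble hydrolases cut proteins, sugars and lipids, and heavily glycosylated membrane proteins line the inner face. In macrophages the lysosome completes phagocytosis, and cathepsins trim antigens for presentation. Many lysosome genes carry a CLEAR element, an extended E-box to which TFEB and its relatives bind. C/EBPα and IRF8 are transcription factors of the myeloid lineage, JUNB is a subunit of AP-1, and IL-4 drives alternative polarization through STAT6.

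Peaks carry a Peak Score, read here as a −log10 significance (whether p or q is not stated), so a ratio of scores compares significance and not occupancy. It also depends on sequencing depth, which is unknown for these libraries. A peak was shared if it overlapped by at least 1 bp a peak of the other condition for the same factor, gained if only the IL-4 list held it and lost if only the control list did. Peaks belong to the gene with the nearest transcription start site (TSS), so several peaks of a gene are not independent and a peak may act on another gene. Depth, library kit, background and IL-4 cannot be told apart in any of the comparisons of conditions.

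C/EBPα and IRF8 occupied nearly every lysosome gene with a peak, whereas JUNB peaks were few, as they were in the whole series. Lysosome genes held 141 C/EBPα peaks in control against 139 with IL-4. The IRF8 lists held 168 and 172 such peaks, and the JUNB lists 26 and 13. In control, C/EBPα peaks were assigned to 39 lysosome genes, IRF8 peaks to 40 and JUNB peaks to 16, of 41 with a peak in any list. Of the 14889 other genes with a peak in any list, 9288, 12127 and 2699 had a control peak of these factors. The whole control lists held 24486, 37525 and 3940 peaks. The highest score of a gene over both lists was a median of 36.8 for C/EBPα, against 20.0 over all other genes with a peak. For IRF8 the corresponding medians were 71.6 and 19.7, and for JUNB 7.11 and 8.44. Over single peaks in control the median score was 12.8 against 11.2 for C/EBPα, 14.3 against 10.3 for IRF8 and 6.74 against 7.88 for JUNB. Lysosome genes also had more C/EBPα and IRF8 peaks each, and a highest score tends to rise with the number of peaks. The median number over both lists was 5.5 against 3 for C/EBPα, 6 against 3 for IRF8 and 2 against 2 for JUNB.

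**Figure D1:**
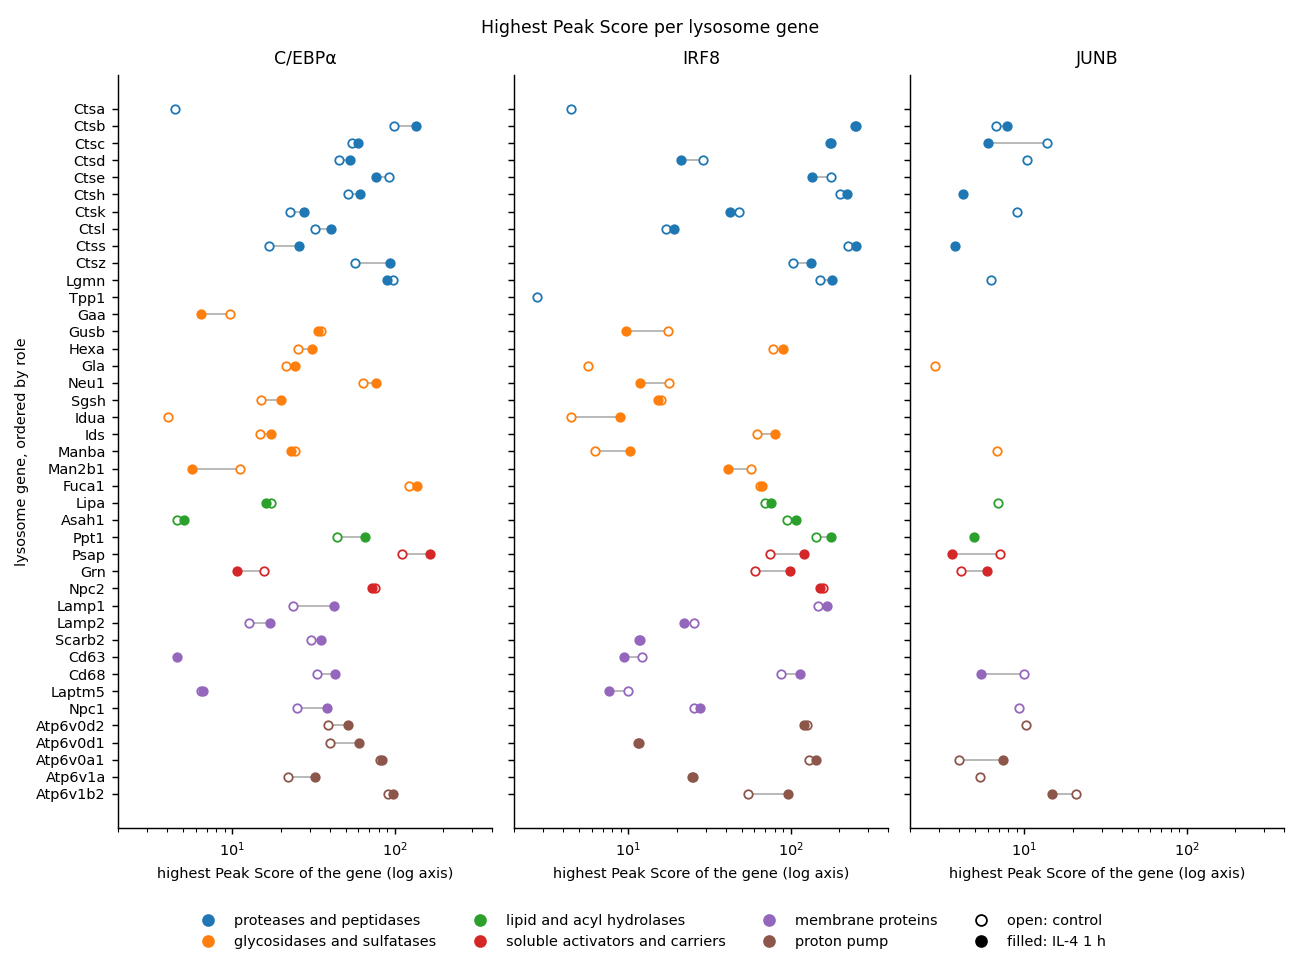
Highest Peak Score (log axis) of each of the 41 lysosome genes with a peak, in 3 panels for C/EBPα, IRF8 and JUNB, with open points for control, filled points for IL-4 and a grey line joining both. IRF8 scores span 2.76 at Tpp1 to 254 at Ctss, while no JUNB score passes 20.8.

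Peaks at lysosome genes lay closer to the TSS than other peaks. The median absolute distance for C/EBPα in control was 11549 bp, against 20279 bp at other genes, and the same order held in all 6 lists. This was not particular to the module. A second list of 48 lysosome genes outside it lay closer still in all 6 lists, with a median of 8855 bp for C/EBPα in control. In the C/EBPα control list 45.4% (95% Wilson interval 37.4 to 53.6) of lysosome peaks were within 10000 bp of the TSS, against 33.3% of other peaks. Beyond 100000 bp lay 2.13% and 12.2%. These intervals cover counting error only, and neighbouring peaks are not independent draws.

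By the deposited annotation, promoter peaks made up 14 of 141 C/EBPα peaks in control (9.93%, 6.01 to 16, against 6.86% at other genes) and 12 of 139 after IL-4 (8.63% against 7.34%). For IRF8 they were 18 of 168 in control (10.7%, 6.89 to 16.3, against 7.23%) and 17 of 172 after IL-4 (9.88% against 9.16%). JUNB had 2 promoter peaks in each condition. All of these differences from other genes were inside the intervals, except JUNB after IL-4, where 2 of 13 peaks (15.4%, 4.33 to 42.2) compared with 2.72%. Promoter peaks of lysosome genes scored a median of 15.3 for C/EBPα in control against 9.26 at other promoters, and 14 against 7.34 for IRF8. Away from promoters the medians were 12.7 against 11.2 for C/EBPα and 14.3 against 10.5 for IRF8.

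**Figure D2:**
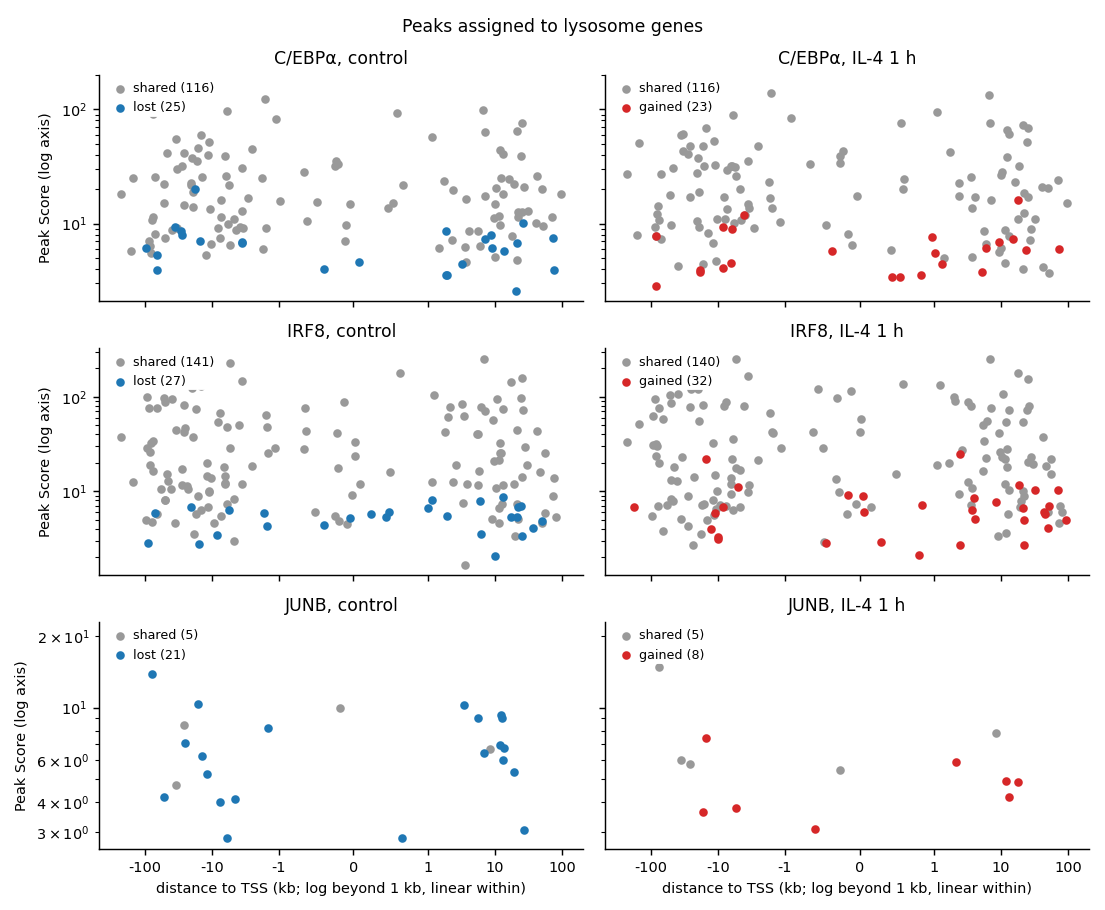
Peak Score (log axis) against distance to the TSS in kb (linear within 1 kb, log beyond) for every peak assigned to a lysosome gene, in 6 panels by factor and condition, coloured as shared, lost or gained. Gained and lost C/EBPα and IRF8 peaks stay at or below a score of 24.6, whereas shared peaks reach 254.

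By the deposited annotation, 26 of the 45 genes had a promoter peak in at least 1 list, 15 of C/EBPα, 21 of IRF8 and 3 of JUNB. The same share was not computed for other genes. From the RefSeq starts used below for the CLEAR search, the closest peaks to Idua, Atp6v0a1 and Grn lay 8374, 1508 and 1168 bp away. At shared promoter peaks, 0 of 11 C/EBPα pairs and 4 of 15 IRF8 pairs differed 2-fold or more in score. At other promoters 8.39% of C/EBPα pairs were at least 2-fold higher after IL-4 and 4.51% at least 2-fold lower. For IRF8 these shares were 15.6% and 4.69%. C/EBPα scored 28.5 and 33 at Ctsz, 15 and 17.4 at Ids, 15.1 and 20.1 at Sgsh, and 7.05 and 8.09 at Ppt1. IRF8 scored 33.5 and 42.2 at Ctss, 43.6 and 42.3 at Ctsz, 16 and 15.3 at Sgsh, and 4.91 and 5.69 at Scarb2. Gained IRF8 promoter peaks were at Manba (9.25), Idua (8.95), Atp6v0d2 (6.04) and Cd63 (2.86), and lost ones at Gla (5.71), Laptm5 (5.26) and Idua (4.44). C/EBPα gained the Fuca1 promoter (5.79) and lost those of Ctsh (4.65) and Idua (4.04). The Manba peak was the highest of these.

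The proteases carried the highest IRF8 scores. Ctsb encodes cathepsin B, a cysteine protease, and its intron 1 (chr14:63128972-63129422, mm10) scored 252 for IRF8 in control and 249.8 after IL-4. C/EBPα at the same intronic region scored 99.4 and 135. A JUNB peak there scored 6.45 in control and was lost after IL-4. Ctss, the cathepsin that cleaves the invariant chain of MHC class II, had its strongest IRF8 site at -5428 bp from the TSS (upstream positions are negative), with scores of 227 and 254. At this site C/EBPα scored 6.54 in control and 26 after IL-4, a ratio of 3.97, and a JUNB peak of 3.78 was present only after IL-4. Ctsh, a cathepsin with aminopeptidase activity, was bound by IRF8 at -20095 bp with scores of 202 and 222. The C/EBPα peak at that place was lower after IL-4, at 10.6 against 21.6. At this site the IRF8 score was thus higher and the C/EBPα score lower in the IL-4 list.

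Ctsc, which encodes cathepsin C, the activator of granule serine proteases, had 24 regions, the most of any lysosome gene. The median was 5 over lysosome genes with a region and 2 over other genes. C/EBPα had 19 peaks in control and 18 after IL-4 near Ctsc, and IRF8 had 20 in each. At -33502 bp from Ctsc the C/EBPα score was 9.07 in control and 43.3 after IL-4, the largest ratio (4.77) among the shared C/EBPα peaks of lysosome genes. A site at -149411 bp scored 25.2 and 50.9 for C/EBPα, and 12.4 and 51.6 for IRF8. It lies in an intron of another gene, so its assignment to Ctsc rests on distance alone. At -77774 bp JUNB had a peak of 13.9 in control, the strongest of its lost peaks, where C/EBPα scored 10.7 and 14.4 and IRF8 4.73 and 7.05.

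Lgmn encodes legumain, an asparaginyl endopeptidase, and had 14 regions. Its strongest C/EBPα peak, at -5951 bp, scored 97.7 in control and 90.2 after IL-4. Further upstream, at -13969 bp, the C/EBPα score was 25.8 in control and 8.36 after IL-4, while IRF8 in the same region scored 152 and 179. All 4 JUNB peaks of Lgmn in control, with scores of 2.82 to 6.24, were absent after IL-4. Ctsk, the collagen-cleaving cathepsin of osteoclasts, likewise had 3 JUNB peaks in control, at 8.17, 9.02 and 9.02, and none after IL-4. Its highest IRF8 score was 47.9 in control and 42.2 after IL-4. Among the other cathepsins, Ctsz had higher scores after IL-4 for C/EBPα (57.3 and 94.3) and IRF8 (104 and 134), and Ctse had lower scores for both (92.4 and 76.7, then 178 and 136). Ctsd, the aspartic protease, had a JUNB peak of 10.4 in control only. Ctsl had its highest C/EBPα score in control at the promoter (32.3). Ctsa, which protects neuraminidase and galactosidase in a complex, had a single peak of C/EBPα (4.44) and of IRF8 (4.47), both in control. The IL-4 peak overlapping that IRF8 peak scored 8.23 and was given to the neighbouring Neurl2. Tpp1, a tripeptidyl peptidase, had a single IRF8 peak of 2.76 in control.

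The glycosidases and sulfatases had fewer peaks, with at most 5 C/EBPα peaks per gene in either list. Fuca1, the lysosomal α-L-fucosidase, was the exception in score, since the highest C/EBPα score of any lysosome gene in control lay at -1588 bp from its TSS. That peak scored 123 in control and 138 after IL-4, and falls on the annotated 3′ UTR of another gene. IRF8 at Fuca1 scored 64.9 and 67.2. Neu1, a sialidase, scored 63.7 and 76.6 for C/EBPα and only 17.9 and 11.9 for IRF8. Gusb, the β-glucuronidase, had promoter peaks for both, at 35.4 and 33.8 for C/EBPα and at 17.6 and 9.74 for IRF8. Gla, the α-galactosidase A, had C/EBPα at its promoter with 21.6 and 24.5, and its IRF8 peak (5.71) and JUNB peak (2.82) were lost after IL-4. Manba, a β-mannosidase, gained 6 IRF8 peaks and lost 2, the most IRF8 gains of any lysosome gene, with a best score of 6.29 in control and 10.4 after IL-4. Man2b1 had lower best scores after IL-4 for C/EBPα (11.2 and 5.67) and IRF8 (57.3 and 41). Hexa, Ids and Sgsh, whose products degrade gangliosides or glycosaminoglycans, had best C/EBPα scores between 15.0 and 31.1 in both conditions. Gaa, the acid α-glucosidase, had only C/EBPα at its promoter (9.66 and 6.47), and Idua had promoter peaks of at most 8.95.

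Of the lipid and acyl hydrolases, Ppt1 had the strongest binding. Ppt1 removes palmitate from proteins, and its best scores were 44.3 and 65.4 for C/EBPα and 144 and 178 for IRF8. It also had 2 JUNB peaks after IL-4 (4.93 and 4.85) and none in control. Lipa, the acid lipase that releases cholesterol from its esters, gained 3 C/EBPα peaks and lost none, but its best C/EBPα score was 17.4 in control and 16.2 after IL-4. Asah1, the acid ceramidase, was bound by IRF8 at 94.9 and 108 and hardly by C/EBPα (4.59 and 5.06).

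Psap encodes prosaposin, the precursor of the saposins that present lipids to hydrolases, and showed some of the largest scores after IL-4. A site at -24840 bp (chr10:60252590-60252986) scored 111 for C/EBPα in control and 164 after IL-4, the highest C/EBPα score of any lysosome gene in that list. IRF8 at the same place scored 46.5 and 120.3, and JUNB had a peak of 7.11 in control that was lost. At the Psap promoter the IRF8 score was 23.7 in control and 58.2 after IL-4, a ratio of 2.46. Psap gained 2 C/EBPα peaks and lost 4, the same number of losses as Ctsh. Grn, the progranulin precursor, had higher IRF8 scores after IL-4 (60.6 and 99.1) and lower best C/EBPα scores (15.8 and 10.7). Npc2, the soluble cholesterol carrier, had best scores of 76.1 and 73.1 for C/EBPα and of 159 and 152.5 for IRF8.

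Among membrane proteins, Lamp1 is the abundant glycoprotein of the lysosomal membrane. At -3578 bp from its TSS IRF8 scored 148 in control and 168 after IL-4, and a C/EBPα peak of 6.79 was lost. In intron 1 of Lamp1 C/EBPα scored 23.6 in control and 42.6 after IL-4, and IRF8 42.1 and 20.1. Lamp2 gained 4 IRF8 peaks and lost none, yet its best IRF8 score was 25.6 in control and 22 after IL-4. Npc1, the membrane cholesterol transporter, had best C/EBPα scores of 25.1 and 38.3 and lost its JUNB peak of 9.27. Scarb2, the receptor that carries glucocerebrosidase to lysosomes, had scores of 30.6 and 35.4 for C/EBPα and 11.9 and 11.6 for IRF8. Cd63 and Laptm5 had best scores of at most 12.2 in all lists.

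Cd68, which encodes the macrophage scavenger receptor-like membrane protein macrosialin, was the only lysosome gene with a promoter peak of every factor in both conditions. C/EBPα scored 33.3 and 42.9 there, IRF8 87.8 and 115, and JUNB 9.98 and 5.46. It was 1 of 4 lysosome regions bound by all 3 factors in both conditions (1.57% of 254, 0.614 to 3.98, against 1.63% of other regions). The others were at -34788 and -26346 bp from Ctsc and at -75888 bp from Atp6v1b2. The stretch at the centre of the strongest Cd68 promoter peak is shown because the 3 factors meet there. It is the plus strand of mm10, 93 bases without annotated exons, and the capitals mark matches to an AP-1 motif (TGANTCA) and a C/EBP motif (TTGCNNAA, here on the opposite strand).

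Cd68 promoter, chr11:69666154-69666246: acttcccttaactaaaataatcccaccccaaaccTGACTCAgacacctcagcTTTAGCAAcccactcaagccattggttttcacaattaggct

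The proton pump genes were bound by both myeloid factors. Atp6v0a1 encodes the a1 subunit of the membrane sector, and its strongest IRF8 site, at -14532 bp, scored 129 in control and 144 after IL-4. At the promoter IRF8 scored 76.6 and 120.4. C/EBPα had separate control peaks at -1093 bp (81.9) and at the promoter (10.6), and a single IL-4 peak of 84.1 covered both, so the promoter value cannot be compared. JUNB gained 2 peaks at Atp6v0a1, at -15164 bp (7.43) and at the promoter (3.09), and lost 1 (4.01).

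Atp6v0d2, the d2 subunit found in macrophages and osteoclasts, had the largest IRF8 ratio of any shared lysosome peak, 3.01 in control and 16.7 after IL-4 at -4632 bp, a ratio of 5.53. The ratio rests on a low control score, since distal IRF8 peaks of lysosome genes in control had a median of 14.3 and a minimum of 1.68. In intron 1 of Atp6v0d2 (chr4:19918863-19919275) C/EBPα scored 6.20 and 25.5, IRF8 1.68 (the minimum just given) and 7.15, and the JUNB peak of 10.3 was lost. A C/EBPα peak in its last intron was lower after IL-4, at 26.1 and 4.16, the smallest C/EBPα ratio (0.160). Atp6v1b2, the B2 subunit of the catalytic sector, had 18 regions. Its promoter scored 41.4 for IRF8 in control and 96.1 after IL-4, and its site at -75888 bp had the highest JUNB score of any lysosome gene (20.8 and 14.8). Atp6v1a, the catalytic A subunit, gained 3 IRF8 peaks and lost none, 1 of which, in intron 1, was the strongest gained IRF8 peak of the module (24.6). In intron 1 of Atp6v0d1, 13039 bp from the TSS, C/EBPα scored 40.3 in control and 60.6 after IL-4, and IRF8 11.7 and 10.3. The highest IRF8 score of Atp6v0d1 after IL-4 (11.5) was that of a gained peak elsewhere in this intron.

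Glb1, Smpd1, Mcoln1 and Cln3 had no assigned peak in any list. They encode β-galactosidase, acid sphingomyelinase, the TRPML1 channel and a membrane protein mutated in juvenile Batten disease. For Glb1, 1 peak within 1000 bp of the TSS was assigned to the neighbouring Tmppe, with a score of 4.58. For Cln3, 2 such peaks were assigned to Apobr. The nearest peak to Smpd1 was 72522 bp away and that to Mcoln1 18596 bp.

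The question put by the IL-4 comparison is whether binding near these genes differs 1 h after the cytokine. C/EBPα gained a peak at 16 of 40 lysosome genes (40%, 26.3 to 55.4), against 36.2% of the 10214 other genes with a C/EBPα peak. It lost a peak at 14 of 40 (35.0%, 22.1 to 50.5), against 36.6%. Both shares were near the background. IRF8 gained a peak at 16 of 40 genes (40%, 26.3 to 55.4), against 55.4% of 14074 other genes, and lost a peak at 20 of 40 (50%, 35.2 to 64.8), against 38.3%. JUNB gained a peak at 6 of 19 (31.6%, 15.4 to 54), against 25.7% of 3169, and lost a peak at 15 of 19 (78.9%, 56.7 to 91.5), against 60.6%.

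For IRF8 the background of 55.4% lay at the upper bound of the interval of the gained share, and 38.3% lay inside that of the lost share. For JUNB 60.6% lay inside the interval of the lost share. With net change in peak number counted instead, 7 of 40 lysosome genes had more IRF8 peaks after IL-4 (17.5%, 8.75 to 31.9), against 40.6% of other genes, and 9 had fewer (22.5%, 12.3 to 37.5), against 21.2%. With peaks scoring under 5 left out, IRF8 was gained at 15 of 38 (39.5%, 25.6 to 55.3), against 44.4%, a background inside the interval. By net change C/EBPα peaks were more numerous after IL-4 at 10 of 40 genes (25%, 14.2 to 40.2), against 26.7%. A gene with more peaks has more chances to gain or lose one, so the shares were also compared within classes of peak number. Among genes with 1 or 2 IRF8 peaks over both lists, 1 of 7 lysosome genes gained a peak (14.3%, 2.57 to 51.3) against 39.7% of other genes, and 3 of 7 lost one (42.9%, 15.8 to 75) against 19.7%. Among genes with 3 to 5 IRF8 peaks over both lists, 1 of 7 lysosome genes gained a peak (14.3%) against 55.1% of other genes, and with 6 to 10 peaks 5 of 15 did (33.3%, 15.2 to 58.3) against 65.6%. The losses of IRF8 in these classes were 3 of 7 (42.9% against 37.9%) and 7 of 15 (46.7% against 49.8%). With 11 or more IRF8 peaks, 9 of 11 lysosome genes gained a peak (81.8%, 52.3 to 94.9), close to the 87.8% of other genes, and 7 of 11 lost one (63.6%, 35.4 to 84.8) against 77.6%. With 1 or 2 JUNB peaks, 9 of 13 genes lost one (69.2%, 42.4 to 87.3) against 56%, and with 3 to 5 peaks all 6 did, against 76%.

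**Figure D3:**
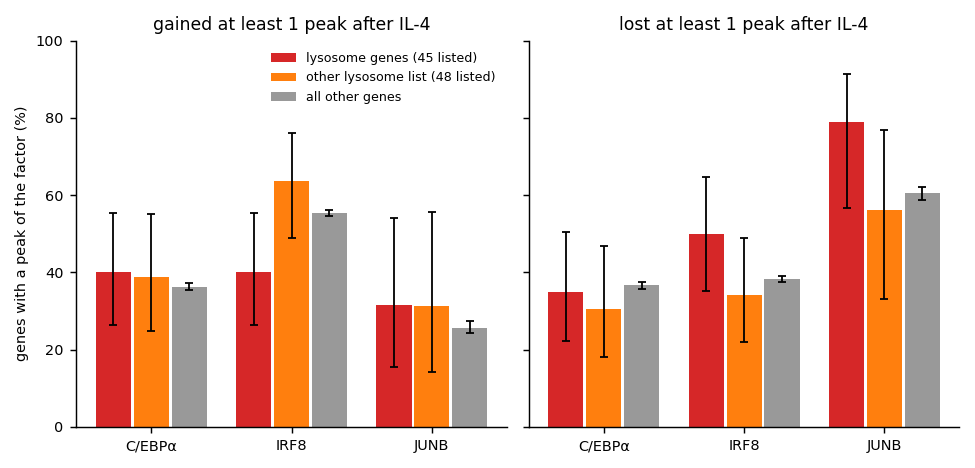
Percent of genes with a peak of the factor that gained (left) or lost (right) at least 1 peak after IL-4, for the lysosome genes, a second list of 48 lysosome genes and all other genes, with 95% Wilson intervals as bars. The IRF8 gain share is 40% for the lysosome genes, 63.6% for the second list and 55.4% for all other genes.

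By role, IRF8 gained a peak at 4 of 5 proton pump genes, 4 of 7 membrane protein genes and 5 of 12 protease genes, and at 2 of 10 glycosidase and sulfatase genes and 0 of 3 activator genes, beside 55.4% of all other genes. The roles differed in IRF8 peaks per gene, with a median of 11 for the proton pump and 3.5 for glycosidases and sulfatases, and genes with more peaks gained one more often. C/EBPα lost a peak at 6 of 11 protease genes and 2 of 11 glycosidase and sulfatase genes, beside 36.6% of all other genes. JUNB lost a peak at 4 of 4 proton pump genes and 5 of 7 protease genes, beside 60.6%. Ctsh gained a peak for all 3 factors. Lgmn, Manba, Ppt1, Psap, Cd63, Laptm5, Atp6v0d1 and Atp6v0a1 did so for exactly 2. Lgmn, Psap, Atp6v0d2 and Atp6v1b2 lost a peak for all 3 factors, and 11 genes did for exactly 2, among them Ctsb, Ctsc, Ctsk, Gusb and Npc1. Ctse, Ctsz, Gaa, Neu1, Sgsh, Ids and Scarb2 had peaks but neither gained nor lost one for any factor. Gains and losses over several factors were not counted for other genes, so these counts have no background. Lgmn, Psap, Atp6v0d2 and Atp6v1b2 had 14, 12, 10 and 18 regions, against a median of 2 over other genes with a region.

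The gained and lost peaks were low. The 23 gained C/EBPα peaks scored a median of 5.79 (5.89 at other genes) and at most 16.1, the latter 17556 bp downstream of the Psap TSS, where the annotation names the end of another transcript. The 25 lost C/EBPα peaks scored a median of 6.79 (5.62 at other genes) and at most 19.9, upstream of Atp6v1b2. The 32 gained IRF8 peaks had a median of 6.21 (4.99) and the 27 lost IRF8 peaks a median of 5.40 (5.33). Besides Atp6v1a, the strongest gained IRF8 peaks were upstream of Atp6v0a1 (22.1) and in Atp6v0d1 (11.5), and the strongest lost ones lay in Lgmn (8.61), Atp6v0d1 (8) and Laptm5 (7.99). Of all these peaks, 1 gained and 2 lost C/EBPα peaks and 4 gained and 3 lost IRF8 peaks were at promoters.

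The strongest gained and lost IRF8 peaks are shown as 150 bases at the peak centre, plus strand of mm10, with motif matches in capitals. The gained site in Atp6v1a (chr16:44136377-44136820) holds no match to any motif searched, and the lost site in Lgmn (chr12:102426324-102426559) holds an AP-1 match. The promoter peak of Atp6v0a1, the highest-scoring IRF8 promoter peak of the module, holds a match to the STAT6 type, that is TTC and GAA spaced by 3 or 4 bases.

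Atp6v1a intron 1, gained IRF8 peak, chr16:44136524-44136673: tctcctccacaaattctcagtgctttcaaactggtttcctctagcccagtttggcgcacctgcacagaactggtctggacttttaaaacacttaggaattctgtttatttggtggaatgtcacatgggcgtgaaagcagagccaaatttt
Lgmn intron 1, lost IRF8 peak, chr12:102426367-102426516: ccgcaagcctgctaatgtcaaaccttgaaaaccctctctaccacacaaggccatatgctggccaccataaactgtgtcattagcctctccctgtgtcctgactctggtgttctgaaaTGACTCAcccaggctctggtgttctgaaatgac
Atp6v0a1 promoter, IRF8 peak, chr11:101008816-101008965: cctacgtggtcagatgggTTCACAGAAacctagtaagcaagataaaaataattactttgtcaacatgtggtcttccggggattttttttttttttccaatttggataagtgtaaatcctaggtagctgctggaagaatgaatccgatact

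At the shared peaks, C/EBPα scores at lysosome genes leaned towards higher values after IL-4. Of 114 shared peaks, 74 scored higher after IL-4 (64.9%, 55.8 to 73.1), against 49.6% of 18997 at other genes, and the median log2 ratio of IL-4 over control was 0.21 against -0.0042. The best C/EBPα score of a gene was higher after IL-4 for 28 of 37 lysosome genes with a peak in both lists (75.7%) and for 51.5% of 8355 other genes. A score at least 2-fold higher was found at 10 of 114 (8.77%, against 7.72%) and at least 2-fold lower also at 10 (8.77%, against 6.54%). The median was 0.20 at promoters (11 peaks) and 0.21 elsewhere (103 peaks), and it was positive in peaks with a control score of at least 20 (0.19 over 50 peaks, against -0.066 at other genes). By role, the median log2 ratio was 0.37 for membrane proteins (9 peaks), 0.32 for activators and carriers (10) and 0.29 for the proton pump (21). It was 0.20 for proteases (51), 0.20 for lipid and acyl hydrolases (8) and -0.081 for glycosidases and sulfatases (15).

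For IRF8, 81 of 140 shared peaks scored higher after IL-4 (57.9%, 49.6 to 65.7), against 55.4% of 28970 at other genes, with median log2 ratios of 0.14 and 0.082. A score at least 2-fold higher occurred at 12 (8.57%, against 11.3%) and at least 2-fold lower at 5 (3.57%, against 7.98%). Of the 15 shared IRF8 promoter peaks, those of Psap, Ctsl (5.52 and 13.5) and Atp6v1b2 were at least 2-fold higher and that of Lamp2 (6.09 and 2.89) at least 2-fold lower. The shares were 20% and 6.67%, against 15.6% and 4.69% at other promoters. Best IRF8 scores were higher after IL-4 for 20 of 37 genes (54.1%) against 58.3% of other genes. The role medians ran from 0.58 for activators and carriers (10 peaks) to -0.22 for membrane proteins (15 peaks).

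JUNB had only 5 shared peaks at lysosome genes, with a median log2 ratio of -0.48 against -0.55 at 1401 peaks of other genes. Requiring 50% reciprocal overlap left 3 pairs, with a median of 0.225 (-0.528 at other genes). None of these 5 reached a 2-fold difference, against 3% higher and 30% lower at other genes. The peaks at Cd68, upstream of Atp6v1b2 and at -26346 bp from Ctsc scored lower after IL-4, and those in Ctsb (6.69 and 7.82) and at -34788 bp from Ctsc (4.71 and 6.03) scored higher.

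**Figure D4:**
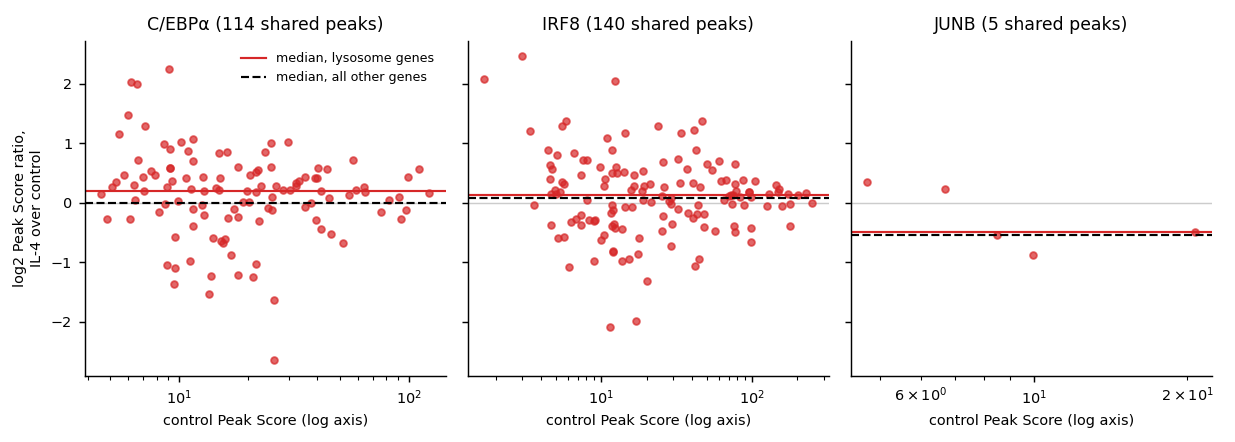
Log2 ratio of Peak Scores, IL-4 over control, against the control score (log axis) for the shared peaks of lysosome genes in 3 panels by factor, with the median of lysosome genes as a solid line and that of all other genes as a dashed line. For C/EBPα the solid line lies at 0.21 and the dashed line at -0.0042.

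JUNB kept 5 of its 26 control peaks at lysosome genes (19.2%, 8.51 to 37.9), against 35.9% at other genes. By comparison C/EBPα kept 116 of 141 (82.3%, 75.1 to 87.7, against 78.6%) and IRF8 141 of 168 (83.9%, 77.6 to 88.7, against 78.5%). The whole JUNB list was shorter after IL-4, 2325 peaks against 3940. With both lists cut to the same number of highest-scoring peaks, JUNB was lost at 7 of 15 lysosome genes (46.7%, 24.8 to 69.9) against 41.3% of other genes and gained at 8 of 15 (53.3%, 30.1 to 75.2) against 41.6%. The share of control peaks kept was then 3 of 12 (25%, 8.89 to 53.2) against 47.3%, a background inside the interval. The 21 lost JUNB peaks scored a median of 6.45 (6.79 at other genes) and the 8 gained ones 4.54 (5.09).

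Most lysosome regions that lost JUNB kept the other factors. C/EBPα and IRF8 both had a peak in both conditions at 16 of the 21 (76.2%, 54.9 to 89.4), against 50.7% of 2474 such regions at other genes. C/EBPα was kept at 18 (85.7%, 65.4 to 95, against 61.2%). IRF8 was kept at 17 (81%, 60 to 92.3, against 70.3%), a background inside the interval. The 1 region without either factor was in Manba (6.79), a share of 4.76% (0.846 to 22.7), against 10.1%. Of the 8 regions that gained JUNB, 7 had C/EBPα or IRF8 in some list (87.5%, against 81.9% at other genes). The gained peaks lay at Atp6v0a1, Grn (5.89), Ppt1, Ctsh (4.22), Ctss and Psap (3.63). Of the 5 regions with JUNB in both conditions, 4 also held C/EBPα and IRF8 in both. Lysosome regions in general held more than 1 factor more often in control, at 45.8% against 31.9% of other regions. Whether the shares at regions that lost JUNB go beyond this was not tested.

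**Figure D5:**
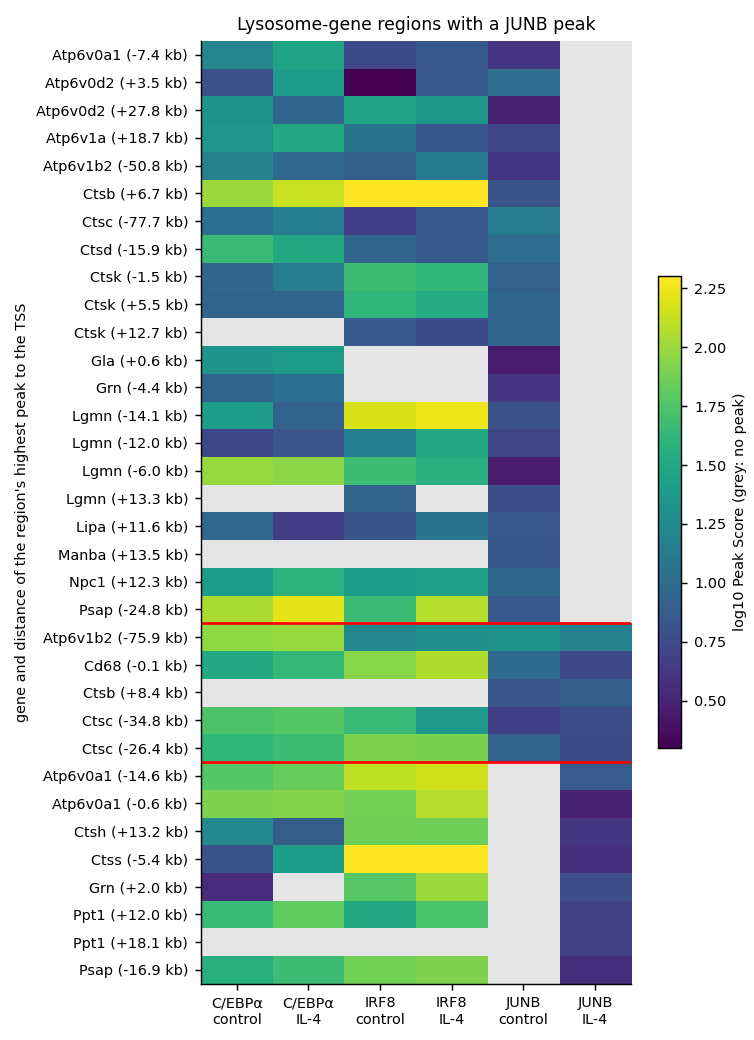
Log10 Peak Score (colour, grey for no peak) in the 6 lists for the 34 lysosome regions with a JUNB peak, labelled by gene and distance to the TSS in kb. Red lines separate 21 regions with JUNB in control only, 5 with JUNB in both and 8 with JUNB after IL-4 only.

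The strongest lost and gained JUNB peaks, shown next as 150 bases of the plus strand at their centres, both contain the AP-1 motif. The gained one also contains 2 matches of the STAT6 type and a PU.1-IRF composite (GGAANNGAA), 1 of the STAT6 matches overlapping the composite.

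Ctsc upstream, lost JUNB peak, chr7:88200245-88200394: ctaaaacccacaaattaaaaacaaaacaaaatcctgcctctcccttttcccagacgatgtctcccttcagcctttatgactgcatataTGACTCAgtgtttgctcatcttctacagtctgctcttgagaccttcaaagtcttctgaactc
Atp6v0a1 upstream, gained JUNB peak, chr11:100994214-100994363: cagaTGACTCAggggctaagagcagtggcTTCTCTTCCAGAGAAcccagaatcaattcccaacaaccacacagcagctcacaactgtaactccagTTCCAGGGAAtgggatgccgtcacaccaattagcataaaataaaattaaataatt

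AP-1 matches were found at 11 of 26 JUNB peaks of lysosome genes in control (42.3%, 25.5 to 61.1), against 51.3% at other genes. The C/EBP motif was at 42 of 141 C/EBPα peaks (29.8%, 22.9 to 37.8, against 31.1%). The composite was at 37 of 168 IRF8 peaks (22%, 16.4 to 28.9, against 18.9%), and the IRF motif (GAAANNGAA) at 18 (10.7%, 6.89 to 16.3, against 13.6%). Both strands were searched in 150 bases at each peak centre, and the IRF and composite motifs can overlap. The STAT6 type occurred at 4 of 8 gained JUNB peaks of lysosome genes (50%, 21.5 to 78.5, against 21.8%) and at 2 of 21 lost ones (9.52%, against 8.09%). For IRF8 it was at 8 of 32 gained peaks (25%, 13.3 to 42.1, against 15.5%) and 1 of 27 lost ones (3.70%, against 6.94%). For C/EBPα it was at 4 of 23 gained peaks (17.4%, 6.98 to 37.1, against 24.5%) and 2 of 25 lost ones (8%, against 6.17%). A match is a run of letters and not a measured site of STAT6.

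By count, lysosome regions more often held several factors than other regions did, though their C/EBPα and IRF8 scores were also higher. In control, 97 of 212 lysosome regions (45.8%, 39.2 to 52.5) had more than 1 factor, against 31.9% of 47192 other regions. After IL-4 this was 88 of 220 (40%, 33.8 to 46.6), against 29.6%. All 3 factors met at 20 regions in control (9.43%, 6.19 to 14.1, against 5.36%) and at 10 after IL-4 (4.55%, 2.49 to 8.16, against 3.07%). C/EBPα and IRF8 without JUNB were together at 73 regions in control (34.4%, 28.4 to 41.1, against 24.5%) and 77 after IL-4 (35%, 29 to 41.5, against 25.6%). IRF8 alone held 70 (33%, against 46.8%) and 81 (36.8%, against 51.7%), and C/EBPα alone 43 (20.3%, against 20.4%) and 49 (22.3%, against 18.2%). C/EBPα and IRF8 were gained together at 2 regions, among 23 with a C/EBPα gain and 30 with an IRF8 gain. At other genes this was 749 regions among 5240 and 12620.

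The CLEAR form of the E-box (TCACGTGA) was looked for in the RefSeq promoters (GRCm38.p6, 250 bases before to 50 after the start), which matched 38 of the 45 genes. Ctsb, Ctse, Ctsh, Asah1, Npc1, Atp6v0d2 and Atp6v1b2 had no entry. It was present in 7 of 38 lysosome promoters (18.4%, 9.22 to 33.4), against 1.10% of 26987 other genes, and the shorter E-box CACGTG, which it contains, in 13 (34.2%, 21.2 to 50.1, against 8.06%). By the deposited gene names, 2 of the 7 genes had a peak annotated as promoter, Ctsa (4.47) and Gla (up to 24.5). By position, Atp6v1a had a C/EBPα peak 281 bp from its TSS (4.67 in control) that was assigned to Naa50, Atp6v0d1 an IRF8 peak at 819 bp (2.13 after IL-4, annotated as intron), and Cln3 the 2 peaks assigned to Apobr. The closest peaks to Ctsd and Mcoln1 were 2563 and 18596 bp away. In the ChIP-seq peaks the CLEAR form was rare at lysosome genes and elsewhere. No C/EBPα peak of a lysosome gene in control held it at its centre (0 of 141, which allows a share of up to 2.13%, against 0.242% at other genes), nor any of 26 JUNB peaks (up to 11.5%, against 0.179%), and 1 of 168 IRF8 peaks did (0.595%, 0.105 to 3.29, against 0.228%). The first match in each of the 7 promoters is shown in capitals within 30 bases on the strand of the gene.

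Atp6v0d1, chr8:105566050-105566079, minus strand: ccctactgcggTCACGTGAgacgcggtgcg
Atp6v1a, chr16:44139373-44139402, minus strand: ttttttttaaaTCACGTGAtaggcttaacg
Cln3, chr7:126583340-126583369, minus strand: cacgggtactgTCACGTGAcccccaacctg
Ctsa, chr2:164833749-164833778, plus strand: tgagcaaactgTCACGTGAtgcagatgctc
Ctsd, chr7:142387908-142387937, minus strand: tcgcccgcgtcTCACGTGAcccgttgaggg
Gla, chrX:134601215-134601244, minus strand: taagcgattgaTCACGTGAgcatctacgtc
Mcoln1, chr8:3500462-3500491, plus strand: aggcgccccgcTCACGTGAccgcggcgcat

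A second list of 48 lysosome genes outside the module, of which 44 had a peak, was counted in the same way. IRF8 gained a peak at 28 of its 44 genes (63.6%, 48.9 to 76.2), against 55.4% of all other genes, and lost one at 15 of 44 (34.1%, 21.9 to 48.9), against 38.3%. Both backgrounds lay inside the intervals of this list. The module lay on the other side of each background, which was at the bound of its interval for gains and inside it for losses. For C/EBPα the shares were 14 of 36 gained (38.9%, against 36.2%) and 11 of 36 lost (30.6%, against 36.6%), and for JUNB 5 of 16 (31.2%, against 25.7%) and 9 of 16 (56.2%, against 60.6%), all near the background. Among its groups, all 4 genes of the MiT/TFE factors, the family of TFEB, both gained and lost an IRF8 peak. They held a median of 16 IRF8 peaks, and among other genes with 11 or more, 87.8% gained and 77.6% lost one, so these counts were near the background. The other 14 proton pump genes had IRF8 gains at 6 of 12 with a peak (50%, against 55.4% of all other genes) and losses at 3 of 12 (25%, against 38.3%).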

How the data were processed

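ChIP-seq for C/EBPα, IRF8 and JUNB was analysed from 6 peak tables, 1 per antibody and condition. Cells had been crosslinked with DSG and formaldehyde. With 1 sample per group no p-value was computed. According to the submitters' processing notes the authors used BWA 0.7.10, SAMtools 0.1.19, MACS2 2.0.10 and HOMER 4.2 with mm10, and by the study's methods peaks were called per sample under a q-value limit with regions on a blacklist removed. The control library was not given in the sources used here. The authors' deposited Peak Score, for which no unit is given, was read from its range and decimals as the −log10 q-value or p-value of MACS2. Read depth is unknown. The deposited distance to the TSS, annotation and gene name were used unchanged.

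Peaks of the 2 conditions were shared at an overlap of at least 1 bp and for score ratios each was paired with at most 1 peak by the longest overlap. Overlapping peaks of all lists were merged into regions. Shares carry 95% Wilson intervals. Coordinates are mm10, 1-based, with an uncertainty of 1 bp at the start. No peak ended past its chromosome in GRCm38.p6, and 33 peaks on unplaced sequences were left out of the motif search. Named genes were all members with a promoter peak, gains or losses in at least 2 factors, the highest-scoring gained, lost and control peaks of each factor, the members with the most regions, those with no peak and those with a region of all 3 factors. Exon bases of the GENCODE annotation of GRCm38.p6 were left out of printed sequences. They cover the centres of the strongest gained and lost C/EBPα peaks, which the deposited annotation puts at a transcript end and in an intron, so none is printed for these. The members and gene lists were chosen with earlier results of these data known. Marker lists of 5 T cell, 4 B cell, 5 neutrophil and 4 erythroid genes had 2, 3, 3 and 1 genes with a peak in some list. The scripts were tested on simulated peaks (11 of 11 checks met). Python 3.11.15, pandas 2.3.3, scipy 1.17.1, samtools 1.23.1 and bedtools 2.31.1 were used. Alternatives were a score of at least 5, 50% reciprocal overlap, peaks within 100000 bp, rank matching, a promoter limit of 1000 bp, scaled scores and net peak number.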

Additional observations from a re-analysis of the deposited data

Results flagged for a closer look

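The sign of the median score change after IL-4 at shared lysosome peaks differed between the antibodies. The median log2 ratio was 0.207 for C/EBPα (114 peaks) and 0.137 for IRF8 (140 peaks), but -0.484 for JUNB (5 peaks). The difference was not tested, since each antibody and condition had 1 sample. At other genes the medians were -0.00424, 0.0824 and -0.546, so the JUNB value lies near its background.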

How the results depend on the processing

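Of 92 values recomputed under the alternatives, 84 stayed within the interval of the reported value, 7 moved out of it and 1 changed sign. Counting net change in peak number, genes with more peaks after IL-4 made up 25% for C/EBPα (26.7% of other genes) and 17.5% for IRF8 (40.6%), and genes with fewer IRF8 peaks 22.5% (21.2%). With 50% reciprocal overlap, IRF8 was lost at 67.5% of lysosome genes (47.5% of other genes) and kept 76.2% of control peaks (69.7%), and the median JUNB log2 ratio became 0.225 (-0.528), from only 3 pairs. With rank matching JUNB was lost at 46.7% of genes (41.3%). Dividing scores by the median of their list gave a median IRF8 log2 ratio of 0.242 (0.188). The cause of these shifts was not tested. The IRF8 gain share was below that of other genes under each alternative, but with a score of at least 5 the gap was small (39.5% against 44.4%), and under net change the loss shares lay close. The C/EBPα log2 ratio stayed positive under every alternative run, including pairs with a control score of at least 20 (0.189), which was chosen after seeing the data. No paired analysis was possible because each group held 1 sample, and no replicate could be left out. Unknown depth limits any statement about absent peaks.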
